A study of Mus musculus with 4 samples.

Results

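Amino acid transporters of the solute carrier (SLC) superfamily were followed in RNA-seq gene counts of 4 chimeric mouse embryo samples. The labels name an embryo per library and do not say whether a library holds 1 embryo or a pool, so "embryo" below stands for the library, and p-values measure only the spread between these samples, which may be technical. Members were all genes whose symbol falls in the families Slc1a, Slc3a, Slc6a, Slc7a, Slc36a, Slc38a or Slc43a, antisense forms left out. Of 39179 genes listed in the files, 61 matched, and the 47 with 10 or more counts in at least 2 embryos were kept. The embryos came from 8-cell hosts of an ARC x RLZRFP cross that were injected with embryonic stem cells (ESCs) grown in 2i medium. In 2 embryos the ESCs carried FLAG-Lhx1, a tagged LIM homeodomain transcription factor, and in the other 2 they carried FLAG-Lhx1-mt, a form that the labels mark as mt or Δ and that is called altered here. All 4 embryos were exposed to doxycycline for 24 hours through the water of the recipient females (2 mg/mL with 5% sucrose), were collected at E8.5 and were staged at E7.75 because of delay. The comparison addresses which transcripts differ between induction of FLAG-Lhx1 and of the altered form. No uninduced embryo was analysed here. Neither the altered part of the protein nor the number of ESC clones per form is stated in the labels. Each embryo also holds host cells, and in ESC chimeras the visceral endoderm and trophoblast come mostly from the host.

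Amino acids cross membranes through several carrier classes. Cationic amino acid transporters of the SLC7 family bring in arginine and lysine as single proteins. Other SLC7 proteins are light chains that reach the surface only as a disulfide-linked pair with an SLC3 heavy chain, and exchange one amino acid for another. SLC38 carriers take up glutamine, alanine and related neutral amino acids with sodium, SLC1 carriers take up glutamate or exchange small neutral amino acids, and SLC36 and SLC43 carriers move small or branched-chain amino acids. The SLC6 family moves amino acids, but also neurotransmitters, taurine and creatine. Carriers of this kind supply leucine and arginine, which the kinase complex mTORC1 senses at the lysosome.

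Libraries held 21267116 to 30434442 counts in total. On the scale of all values below, 3 counts corresponded to 0.0959 to 0.153 CPM, the count of a gene scaled to library size. This floor covers counting error only. Log2 CPM correlated across genes at 0.982 and 0.978 within the groups and at 0.965 to 0.970 between them. Lhx1 was at 129 and 114 CPM in FLAG-Lhx1 and at 126 and 98.5 CPM in FLAG-Lhx1-mt, and these counts do not separate transgene from endogenous transcripts. Summed markers of visceral endoderm (14 genes, none at 0) were 2119 and 2406 CPM in FLAG-Lhx1 and 4472 and 3767 CPM in FLAG-Lhx1-mt. Summed markers of epiblast (10 genes) were 632 and 490 CPM against 934 and 1319 CPM, and without Dnmt3b, which made up 52.5% to 57.5% of each sum, 268 and 233 CPM against 414 and 608 CPM. Of these 10, 6 fell (60%, beside 3.55% of all tested genes) and Lin28a, Otx2 and Pou3f1 were not called. Sox2 rose (log2 fold 1.05, edgeR adjusted p = 0.0144), beside 2.62% of all tested genes. Markers of primitive streak other than Lhx1 itself (7 genes) summed to 187 and 162 CPM against 514 and 584 CPM. Markers of anterior neural plate (8 genes) and paraxial mesoderm (9 genes) ran the other way, at 148 to 159 against 17.8 to 29.3 CPM and at 117 to 149 against 20.5 to 38.4 CPM. Hesx1 alone made up most of each anterior neural sum (135 and 121 against 13.2 and 23.2 CPM). Among the 8 anterior neural genes, 6 rose, beside 2.62% of all tested genes, while Rax and Otx1 overlapped between the groups and were not called. Summed markers of blood (22.5 to 22.7 against 19.7 to 27.1 CPM), trophoblast (15.8 to 19.99 against 18.9 to 20.1 CPM) and decidua (15.8 to 18.9 against 18.6 to 20.7 CPM) overlapped between the groups. Single trophoblast markers moved in both directions, and none of the 6 tested was called (median log2 fold 0.67). Of these 6, 2 were higher and 1 lower at an unadjusted p under 0.05 (50%, beside 21.3% of all tested genes). The globin genes Hba-x, Hbb-bh1 and Hbb-y had at most 4 counts in any embryo. The decidual gene Prl8a2 had 2 to 3 counts in 3 libraries and 52 in FLAG-Lhx1-mt replicate 2. In bulk embryos, fewer cells of a type and less RNA per cell cannot be told apart.

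The test was edgeR's quasi-likelihood F test over 15822 genes, every log2 fold is that of FLAG-Lhx1 over FLAG-Lhx1-mt, and a gene is called at a Benjamini-Hochberg adjusted p under 0.05. Of 46 members tested, 4 fell and none rose in FLAG-Lhx1: the cationic carrier gene Slc7a3, the heavy chain gene Slc3a2 and the light chain genes Slc7a7 and Slc7a9. DESeq2 also called 4 lower and 0 higher. The 4 make up 8.70% of the tested members, beside 6.17% of all tested genes that were called in either direction, 3.55% that were called lower and 2.62% that were called higher. At an unadjusted p under 0.05 there were 9 of the 46 members, 7 lower and 2 higher (Slc36a4 and Slc1a2). This share lay under the 21.3% of all tested genes. The median log2 fold of the members was 0.09, beside 0.01 for all tested genes. Under 1 CPM on average, 13 of 14 members had positive folds (median 0.61), beside 62.9% of all tested genes at that level (median 0.27). Of these, Slc36a2 (12, 16, 6 and 5 counts), Slc6a7, Slc6a3 and Slc1a1 reached 10 counts in the FLAG-Lhx1 embryos only. The count rule kept them through the group where they were higher, so their positive folds are not independent of that rule. Between 1 and 20 CPM, 11 of 23 were positive (median -0.08), beside 49.3% of all (median -0.01). Above 20 CPM, 3 of 9 were positive (median -0.23), beside 46.3% of all (median -0.03). The groups did not overlap for 27 of the 46 members (15 lower and 12 higher), beside 52.2% of all tested genes (25.8% lower and 26.4% higher). Slc36a2, Slc6a7, Slc6a3 and Slc1a1 are among these 12. The smallest two-sided p that an exact permutation of 2 against 2 embryos allows is 0.333, so the calls borrow their estimate of spread from the other genes.

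**Figure D1:**
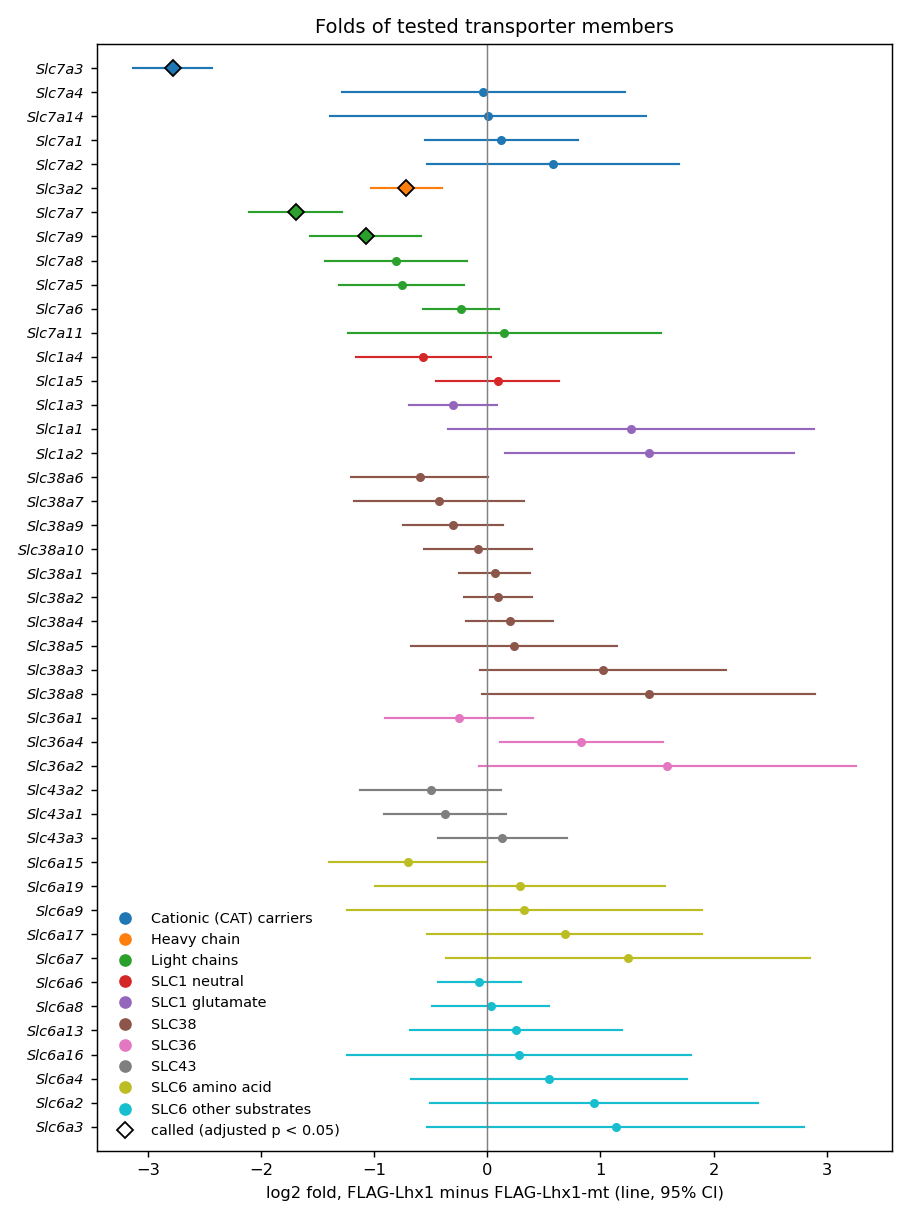
Log2 fold (FLAG-Lhx1 minus FLAG-Lhx1-mt) of the tested members, 1 left out, on the x axis, grouped and coloured by role, with the 95% confidence interval from edgeR as a line and called members as outlined diamonds. The 4 called members, Slc7a3, Slc3a2, Slc7a7 and Slc7a9, all lie below 0, and members at low counts have the widest intervals.

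Among the 5 cationic carrier genes, Slc7a3 fell, beside 3.55% of all tested genes, and the other 4 were not called. Slc7a3 (ENSMUSG00000031297, chromosome X at 101079210 to 101086020 of GRCm38, minus strand) encodes CAT3, an importer of arginine, lysine and ornithine. Values are given for replicate 1 and then replicate 2 of each group. Slc7a3 was at 35.6 and 28.0 CPM in FLAG-Lhx1, against 209 and 229 CPM in FLAG-Lhx1-mt. Both FLAG-Lhx1 embryos were far below both FLAG-Lhx1-mt embryos, and the distance between the groups was many times that between embryos of a group. The group means were 31.8 ± 5.38 and 219 ± 14.5 CPM (SD, n = 2 each), and the log2 difference was -2.78 ± 0.16 (SE; adjusted p = 3.65e-07 by edgeR), or 6.87-fold lower. Across all alternative settings the log2 fold lay between -3.00 and -2.61, and each of them called it.

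The broadly expressed paralog Slc7a1, which encodes CAT1, was at 4.08 and 5.19 CPM in FLAG-Lhx1 and at 3.61 and 4.86 CPM in FLAG-Lhx1-mt. The groups overlapped, and its log2 fold of 0.12 ± 0.32 (SE, adjusted p = 0.869) had a 95% confidence interval from -0.55 to 0.80. Slc7a2, which encodes CAT2, had a log2 fold of 0.58, and the less characterised members Slc7a4 and Slc7a14 had -0.04 and 0.01, and all 3 lay at 0.34 to 1.83 CPM. Per kilobase of exon, the scale on which genes can be set side by side, Slc7a3 made up 92.3% and 88.5% of the cationic carrier transcripts in FLAG-Lhx1 and 98.9% and 98.5% in FLAG-Lhx1-mt. The other 4 genes together were at 0.785 and 0.960 CPM per kilobase in FLAG-Lhx1 and at 0.636 and 0.932 in FLAG-Lhx1-mt. Slc7a3 thus remained the most abundant cationic carrier transcript in every embryo. Summed epiblast and streak markers, given above, were lower in the same embryos as Slc7a3, while the epiblast marker Sox2 was higher, and their part in its fall was not tested.

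**Figure D2:**
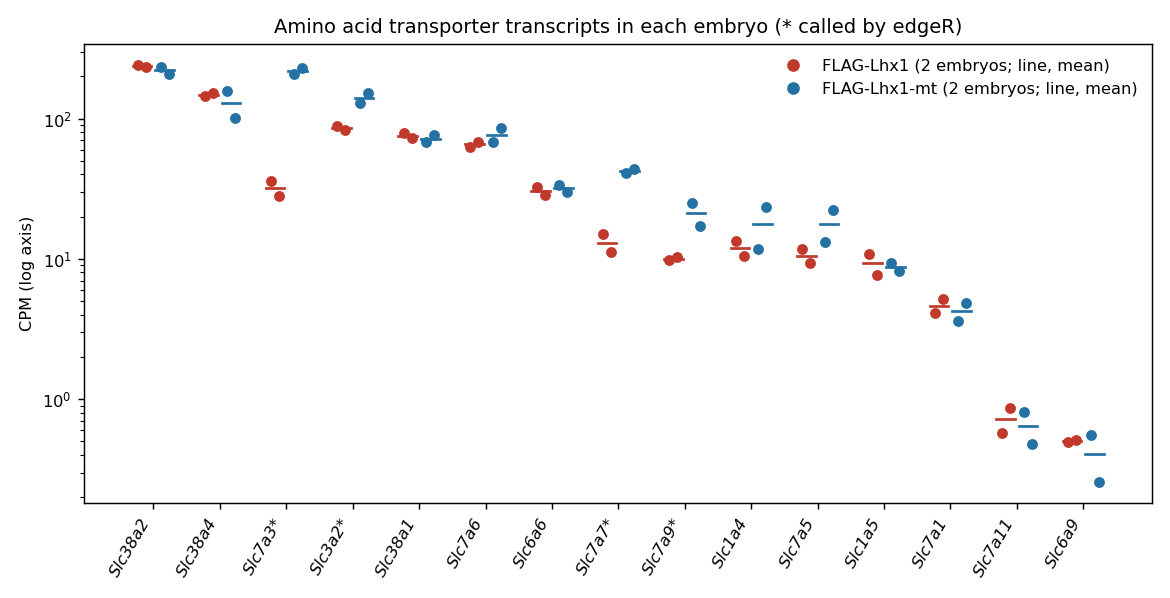
CPM (log axis) of 15 members in each embryo, ordered by mean level, with 1 point per embryo and a line at the group mean. The groups are far apart for Slc7a3 (28.0 to 35.6 against 209 to 229 CPM) and overlap for Slc38a2, Slc38a4, Slc38a1 and Slc6a6.

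The heavy chain gene Slc3a2 and 2 of the 6 tested light chain genes fell, beside 3.55% of all tested genes. Slc3a2 (ENSMUSG00000010095, chromosome 19 at 8706882 to 8723369, minus strand) encodes 4F2hc, also known as CD98, the common partner of most light chains. It was at 88.3 and 83.4 CPM in FLAG-Lhx1 and at 129 and 153 CPM in FLAG-Lhx1-mt. The groups did not overlap, and its log2 fold was -0.72 ± 0.15 (SE; adjusted p = 0.0105 by edgeR), or 1.64-fold lower. Leaving out FLAG-Lhx1 replicate 2 ended the call (log2 fold -0.67, adjusted p = 0.065), and over all alternatives the adjusted p ran from 6.42e-05 to 0.065.

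Slc7a7 (ENSMUSG00000000958, chromosome 14 at 54369442 to 54417780, minus strand) encodes y+LAT1, which pairs with 4F2hc and exports cationic amino acids in exchange for neutral ones. It was at 15.0 and 11.1 CPM in FLAG-Lhx1 and at 41.1 and 43.7 CPM in FLAG-Lhx1-mt. Embryos of a group lay close together, and its log2 fold was -1.69 ± 0.19 (SE; adjusted p = 0.000119 by edgeR), or 3.24-fold lower. It was called in every alternative, with log2 folds of -1.96 to -1.49. Of its exon bases, 6.998% lie under Oxa1l on the other strand. Its closest relative Slc7a6, which encodes y+LAT2, was at 62.9 and 67.7 CPM in FLAG-Lhx1 and at 67.9 and 85.4 CPM in FLAG-Lhx1-mt. That difference was not called (log2 fold -0.23 ± 0.16, adjusted p = 0.425; 95% confidence interval -0.57 to 0.10).

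Slc7a5, which encodes the leucine carrier LAT1, was at 11.7 and 9.31 CPM in FLAG-Lhx1 and at 13.1 and 22.3 CPM in FLAG-Lhx1-mt. Most of the distance came from FLAG-Lhx1-mt replicate 2. The log2 fold of -0.76 ± 0.26 was not called (SE, edgeR adjusted p = 0.0994). It was -1.09 and called without FLAG-Lhx1-mt replicate 1 (adjusted p = 0.000249) and -0.33 without FLAG-Lhx1-mt replicate 2. With all 4 embryos and no count filter it was also called (-0.82, adjusted p = 0.019). Over all alternatives the adjusted p ran from 0.000249 to 0.505. Slc7a8, which encodes LAT2, had a log2 fold of -0.81 (adjusted p = 0.123) and was called only without FLAG-Lhx1-mt replicate 1 (-1.02, adjusted p = 0.00953). Slc7a11, which encodes the cystine carrier xCT, was at 0.479 to 0.865 CPM (15 to 19 counts), with overlapping groups, and was not called (log2 fold 0.15, adjusted p = 0.924).

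Per kilobase of exon, the 5 kept light chains that pair with 4F2hc (Slc7a5, Slc7a6, Slc7a7, Slc7a8 and Slc7a11) summed to 22.7 and 21.5 CPM in FLAG-Lhx1 and to 32.3 and 40.0 in FLAG-Lhx1-mt. The heavy chain transcript was at 25.01 and 23.6 against 36.6 and 43.3 CPM per kilobase. Its ratio to the summed light chains was 1.10 and 1.10 in FLAG-Lhx1 and 1.13 and 1.08 in FLAG-Lhx1-mt, so the 4 embryos overlapped in this ratio. The make-up of the light chains was not alike. Slc7a7 accounted for 19.9% and 15.6% of them in FLAG-Lhx1 and for 38.3% and 33.0% in FLAG-Lhx1-mt, while Slc7a6 accounted for 60.6% and 68.8% against 46.0% and 46.7%.

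Slc7a9 (ENSMUSG00000030492, chromosome 7 at 35448796 to 35466036, plus strand) encodes b0,+AT, an apical importer of cystine and cationic amino acids in kidney and gut. It was at 9.77 and 10.2 CPM in FLAG-Lhx1 and at 25.04 and 17.1 CPM in FLAG-Lhx1-mt. The groups did not overlap, and its log2 fold was -1.07 ± 0.23 (SE; adjusted p = 0.0133 by edgeR), or 2.11-fold lower. All alternatives called it, with log2 folds of -1.34 to -0.78. Its known partner is the heavy chain rBAT, the product of Slc3a1, which did not pass the count rule. Slc3a1 had 12 and 8 counts in FLAG-Lhx1 and 8 and 6 in FLAG-Lhx1-mt, that is 0.0844 to 0.202 CPM per kilobase, where Slc7a9 was at 3.65 to 9.36. These Slc3a1 counts are uncertain, since its exons overlap those of Prepl on the other strand.

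The visceral endoderm is an absorptive epithelium that feeds the early embryo. Of its 14 markers, 7 fell in FLAG-Lhx1 (50%, beside 3.55% of all tested genes) and none rose, with a median log2 fold of -0.62. There were 11 lower and 0 higher at an unadjusted p under 0.05 (78.6%, beside 21.3% of all). The groups did not overlap, with FLAG-Lhx1 lower, for 13 of the 14, beside 25.8% of all tested genes. The lowest p were those of Cldn6, a tight junction gene (log2 fold -1.43), and Apoa1, an apolipoprotein gene (-1.30). Slc7a7 and Slc7a9 were lower in the same embryos, and the part of these markers in their fall was not tested.

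**Figure D3:**
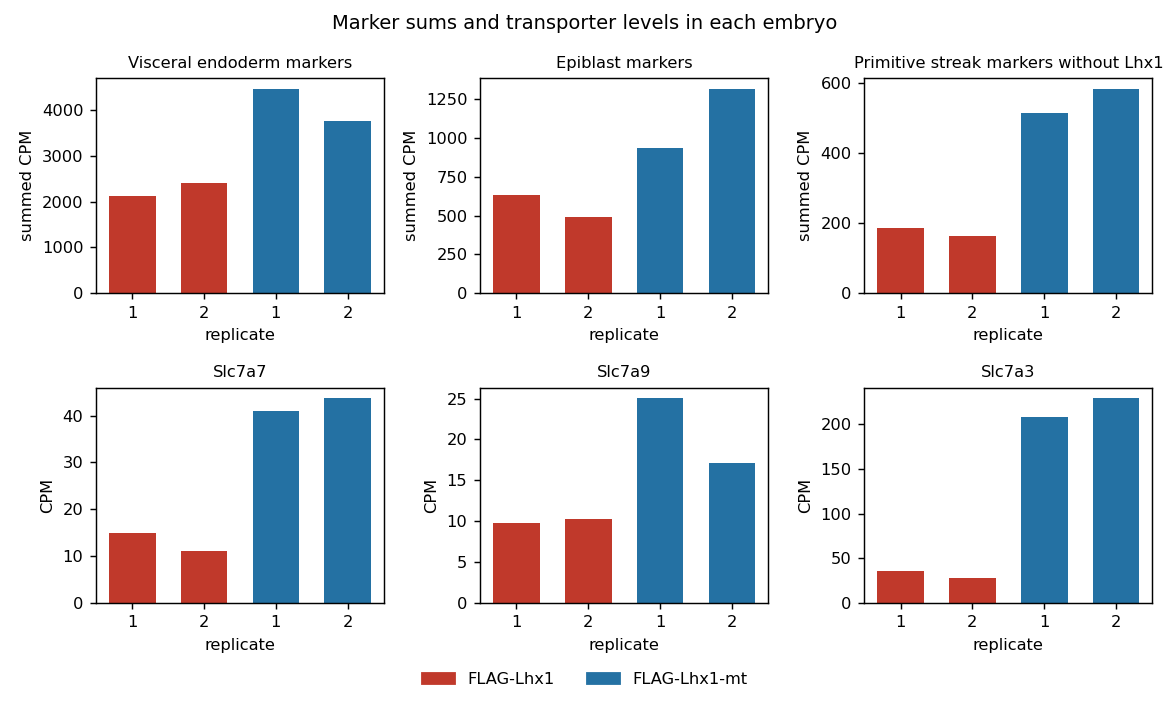
Summed CPM of visceral endoderm, epiblast and primitive streak markers (top row; the streak sum leaves out Lhx1) and CPM of Slc7a7, Slc7a9 and Slc7a3 (bottom row), 1 bar per embryo, each y axis starting at 0. All 6 quantities are lower in both FLAG-Lhx1 embryos than in either FLAG-Lhx1-mt embryo, for example 2119 and 2406 against 4472 and 3767 CPM for the visceral endoderm markers. Of all tested genes, 25.8% were lower in this way. The anterior neural and paraxial mesoderm sums, which ran the other way, are not drawn.

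RefSeq promoter windows (GRCm38.p6, 250 bases before to 50 after a start site, first window listed per gene) are shown for the called members that encode subunits of heteromeric carriers, Slc3a2, Slc7a7 and Slc7a9. No window of Slc7a3 is shown. Capitals mark matches, on either strand, to TGATGNAAN (the amino acid response element bound by ATF4 dimers), TAATTA (a core bound by LIM homeodomain proteins) or ATGCAAAT (the octamer of POU factors). The window of Slc7a7 lies at chr14:54417895-54418194 (minus strand), that of Slc7a9 at chr7:35448842-35449141 (plus strand) and that of Slc3a2 at chr19:8713848-8714147 (minus strand).
Slc7a7: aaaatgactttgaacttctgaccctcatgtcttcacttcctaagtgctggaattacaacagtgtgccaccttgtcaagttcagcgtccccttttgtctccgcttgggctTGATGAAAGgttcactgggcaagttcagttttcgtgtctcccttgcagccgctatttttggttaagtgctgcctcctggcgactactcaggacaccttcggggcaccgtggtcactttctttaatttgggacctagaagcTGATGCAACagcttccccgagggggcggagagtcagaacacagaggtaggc
Slc7a9: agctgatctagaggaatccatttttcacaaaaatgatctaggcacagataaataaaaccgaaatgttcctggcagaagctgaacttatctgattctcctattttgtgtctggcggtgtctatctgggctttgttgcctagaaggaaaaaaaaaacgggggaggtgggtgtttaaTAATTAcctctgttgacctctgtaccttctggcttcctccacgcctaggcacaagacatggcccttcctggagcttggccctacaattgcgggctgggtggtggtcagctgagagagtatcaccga
Slc3a2: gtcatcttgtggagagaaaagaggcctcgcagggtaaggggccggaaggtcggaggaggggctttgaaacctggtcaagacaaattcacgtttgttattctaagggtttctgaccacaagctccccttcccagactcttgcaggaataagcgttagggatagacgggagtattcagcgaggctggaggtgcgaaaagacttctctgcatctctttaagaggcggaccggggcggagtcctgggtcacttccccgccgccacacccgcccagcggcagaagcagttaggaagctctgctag
The window shown for Slc7a7 held TGATGNAAN, starting at 141 bases and at 1 base before its start site. It lies outside the span of Slc7a7 given above, and 2 of the 5 windows of Slc7a7 held this motif. That of Slc7a9 held TAATTA, which reads the same on both strands, starting at 76 bases before. The window of Slc3a2 held none of the 3. TGATGNAAN occurred in 3.95% of the 32851 windows of all genes, TAATTA in 5.29% and ATGCAAAT in 1.74%. Of 46 windows of 31 kept members, 4 held TGATGNAAN (Slc1a4, Slc7a7 and Slc7a11), 6 held TAATTA (Slc1a3, Slc38a2, Slc6a16, Slc7a8 and Slc7a9) and 1 held ATGCAAAT (Slc7a11). TGATGNAAN and ATGCAAAT can share bases, and windows of a gene can overlap. A match describes these letters only.

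The summed transporter transcripts were lower in both FLAG-Lhx1 embryos than in either FLAG-Lhx1-mt embryo; the sum was not tested. Per kilobase of exon, the 47 members summed to 157 and 152 CPM in FLAG-Lhx1 and to 232 and 234 CPM in FLAG-Lhx1-mt, and without Slc7a3 to 148 and 144 against 177 and 174 CPM. The called genes Slc3a2 (25.01 and 23.6 against 36.6 and 43.3), Slc7a7 (4.51 and 3.36 against 12.4 and 13.2) and Slc7a9 (3.65 and 3.82 against 9.36 and 6.40) remain in the sum without Slc7a3. No sum without all called genes was made, and that of the SLC38 genes overlapped between the groups (71.5 and 72.9 against 74.1 and 58.1). Slc7a3 ranked first among the members in both FLAG-Lhx1-mt embryos, with 23.8% and 25.9% of the sum, and number 5 in both FLAG-Lhx1 embryos, with 5.99% and 4.89%. In FLAG-Lhx1 the highest were Slc38a4 (21.6% and 23.4%) and Slc38a2 (17.4% and 17.3%). The leading 5 genes were the same in all 4 embryos and held 69.6% to 73.3% of the sum. With the longest transcript in place of all exon bases, an alternative chosen after seeing the data, Slc7a3 kept these ranks in each embryo, but the order of Slc38a4 and Slc38a2 did not hold. Slc38a4 was then at 36.8 and 38.5 CPM per kilobase in FLAG-Lhx1 and Slc38a2 at 39.4 and 37.9, so that Slc38a2 ranked first in replicate 1.

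**Figure D4:**
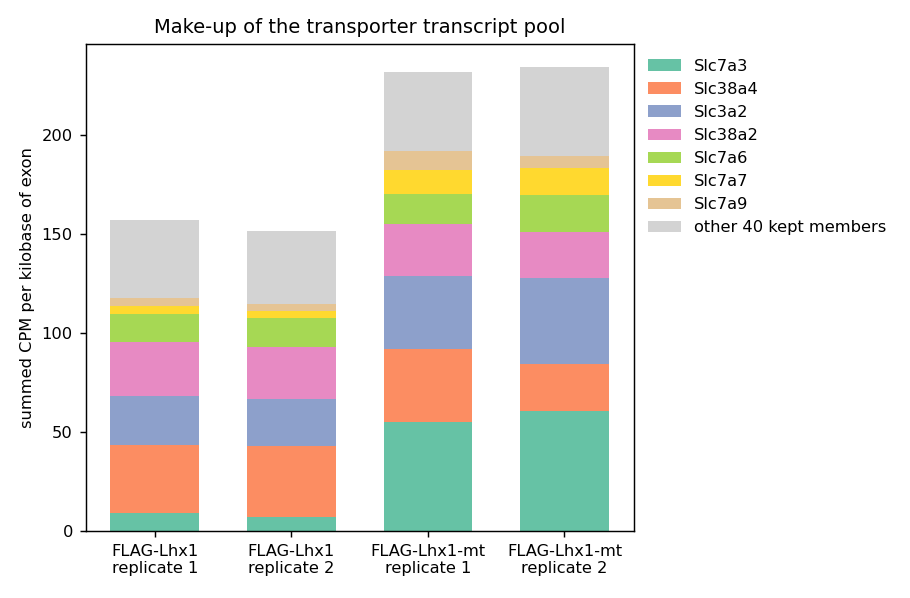
Summed CPM per kilobase of exon of the 47 kept members, 1 stacked bar per embryo, with 7 members in colour and the other 40 in grey. The FLAG-Lhx1 bars reach 157 and 152 and the FLAG-Lhx1-mt bars 232 and 234, and the Slc7a3 layer is the one that differs most in height.

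None of the 10 tested SLC38 genes was called by edgeR, beside 6.17% of all tested genes called in either direction. Of these 10, 0 had an unadjusted p under 0.05, beside 21.3% of all tested genes, and their median log2 fold was 0.08. Slc38a2, which encodes the starvation-responsive glutamine and alanine carrier SNAT2, was at 241 and 232 CPM in FLAG-Lhx1 and at 234 and 208 CPM in FLAG-Lhx1-mt. The groups overlapped, and the fold on the log2 scale was 0.10 ± 0.14 (SE, edgeR adjusted p = 0.745) with a 95% confidence interval of -0.20 to 0.40. Slc38a1 (SNAT1) was at 78.3 and 72.0 against 67.7 and 76.0 CPM, a log2 fold of 0.07 with an interval of -0.25 to 0.38.

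Slc38a4, an imprinted gene for the placental carrier SNAT4, was at 145 and 151 CPM in FLAG-Lhx1 and at 157 and 101 CPM in FLAG-Lhx1-mt. The FLAG-Lhx1-mt embryos lay on either side of the others. Its log2 fold was 0.20 ± 0.18 (SE, edgeR adjusted p = 0.582) and was called only without FLAG-Lhx1-mt replicate 1 (0.54, adjusted p = 0.0325). The lysosomal arginine sensor gene Slc38a9 had a log2 fold of -0.30 (adjusted p = 0.44), with 14.7 and 16.7 against 21.6 and 17.03 CPM. Of the others, Slc38a3 (1.02) and Slc38a8 (1.43) had the highest log2 folds at under 2 CPM, Slc38a6 (-0.60) and Slc38a7 (-0.43) the lowest, and Slc38a5 (0.24) and Slc38a10 (-0.08) lay between.

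The glutamate and small neutral amino acid carriers of the SLC1 family were not called either. Slc1a5, which encodes the glutamine exchanger ASCT2, was at 10.9 and 7.68 CPM in FLAG-Lhx1 and at 9.32 and 8.21 CPM in FLAG-Lhx1-mt (log2 fold 0.09 ± 0.26, SE; edgeR adjusted p = 0.884; 95% confidence interval -0.46 to 0.64). Slc1a4, which encodes the serine and alanine exchanger ASCT1, was at 13.5 and 10.5 against 11.8 and 23.6 CPM. Its high value was that of FLAG-Lhx1-mt replicate 2 alone: the log2 fold was -0.57 with all embryos (adjusted p = 0.263), 0.01 without that embryo and -0.98 without FLAG-Lhx1-mt replicate 1 (adjusted p = 0.000995). The glial glutamate carrier gene Slc1a3 was at 21.3 and 21.9 against 24.8 and 28.4 CPM (log2 fold -0.30). Slc1a2 (1.43, unadjusted p = 0.0303) and Slc1a1 (1.27) were at or under 1.68 CPM, and 31.9% of the exon bases of Slc1a1 lie under a gene on the other strand.

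Of the proton-coupled SLC36 carriers, Slc36a4 had the lowest p. It was at 6.11 and 9.36 CPM in FLAG-Lhx1 and at 5.71 and 3.00 CPM in FLAG-Lhx1-mt, without overlap, and its log2 fold of 0.83 ± 0.34 was not called (SE, edgeR adjusted p = 0.167). It was 1.35 and called without FLAG-Lhx1-mt replicate 1 (adjusted p = 0.00192), and 0.41 without FLAG-Lhx1-mt replicate 2. Slc36a1 had a log2 fold of -0.25 and Slc36a2 of 1.59, the latter from 12, 16, 6 and 5 counts. The branched-chain carrier genes Slc43a1 (-0.38) and Slc43a2 (-0.50), and Slc43a3 (0.13), whose product carries purine bases, were not called.

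None of the 13 tested SLC6 genes was called by edgeR, beside 6.17% of all tested genes called in either direction. Only Slc6a15 had an unadjusted p under 0.05, and it was lower, beside 21.3% of all tested genes in either direction. The taurine carrier gene Slc6a6 was at 32.4 and 28.3 CPM in FLAG-Lhx1 and at 33.8 and 30.0 CPM in FLAG-Lhx1-mt (log2 fold -0.07 ± 0.17, SE; edgeR adjusted p = 0.864; 95% confidence interval -0.44 to 0.30), and the creatine carrier gene Slc6a8 had a log2 fold of 0.03. The glycine carrier gene Slc6a9 was at 0.256 to 0.558 CPM, and 30.2% of its exon bases lie under genes on the other strand. Slc6a15, a carrier gene for branched-chain amino acids and proline, had the lowest fold of the family (-0.70, adjusted p = 0.235), at 3.32 and 2.65 against 4.25 and 5.46 CPM. The GABA carrier gene Slc6a13 was at 1.44 to 3.87 CPM (log2 fold 0.25). Slc6a2, Slc6a3, Slc6a4, Slc6a7, Slc6a16, Slc6a17 and Slc6a19 stayed at or under 1.17 CPM, and Slc6a18, kept with 10, 2, 5 and 14 counts, was not tested.

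At the edge of the count rule, Slc3a1, Slc6a5 and Slc6a21 (14, 3, 1 and 5 counts) reached 10 counts in 1 embryo only, as did Slc1a6 (13 in FLAG-Lhx1-mt replicate 2) and Slc6a12 (10 in FLAG-Lhx1 replicate 2). The remaining 9 members left out (Slc1a7, Slc36a3, Slc38a11, Slc6a11, Slc6a14, Slc7a10, Slc7a12, Slc7a13 and Slc7a15) had 4 to 29 counts over all embryos together.

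Other genes that handle amino acids were taken from lists written from general knowledge, but with earlier results of these data known. Their shares beside all tested genes are thus a description only. Of 44 tested genes of amino acid synthesis and breakdown, 4 fell (9.09%, beside 3.55% of all tested genes) and none rose, and their median log2 fold was -0.36. There were 17 lower and 2 higher at an unadjusted p under 0.05 (43.2%, beside 21.3% of all). Tdh, which encodes the threonine dehydrogenase on which mouse ESCs depend, was at 10.2 and 9.46 CPM in FLAG-Lhx1 and at 25.2 and 22.1 CPM in FLAG-Lhx1-mt (log2 fold -1.27 ± 0.21, SE; edgeR adjusted p = 0.00231). Gcat, whose product acts next in that pathway, was at 51.8 and 45.8 against 98.0 and 88.0 CPM (-0.93 ± 0.15, adjusted p = 0.00231). The embryos of each group lay close together for both genes, and both were called in every alternative. A second gene model of the same name covers 47.5% of the exon bases of Gcat. Phgdh, the entry enzyme gene of serine synthesis (-0.70, adjusted p = 0.0125), and Bcat2, a branched-chain aminotransferase gene (-0.72, adjusted p = 0.023), fell too. Leaving out FLAG-Lhx1 replicate 2 ended both calls (adjusted p = 0.152 and 0.147), and that of Bcat2 also without FLAG-Lhx1 replicate 1 (0.0945). Of the exon bases of Bcat2, 15.9% lie under a gene on the other strand.

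Of 20 cytosolic tRNA synthetase genes, 4 fell (20%, beside 3.55% of all tested genes) and none rose, with a median log2 fold of -0.37. There were 11 lower and 0 higher at an unadjusted p under 0.05 (55%, beside 21.3% of all). The called genes were Farsa (-0.89, edgeR adjusted p = 0.00423), Tars (-0.53, 0.0416), Yars (-0.53, 0.0445) and Kars (-0.49, adjusted p = 0.049). The groups did not overlap, with FLAG-Lhx1 lower, for 15 of the 20, beside 25.8% of all tested genes. Farsa was called in every alternative, while 1 of the 20 was called without FLAG-Lhx1 replicate 2 or with upper-quartile scaling, and 2 without FLAG-Lhx1 replicate 1.

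Of 22 tested amino acid carriers outside the families followed here, 2 fell (9.09%, beside 3.55% of all tested genes) and none rose, with a median of -0.32. At an unadjusted p under 0.05, 6 were lower and 0 higher (27.3%, beside 21.3% of all). The 2 that fell were Pqlc2, which encodes the lysosomal exporter of cationic amino acids, and the mitochondrial glycine carrier gene Slc25a38 (-0.73, edgeR adjusted p = 0.0386). Pqlc2 was at 12.5 and 10.9 against 25.8 and 24.3 CPM (log2 fold -1.09 ± 0.20, SE, adjusted p = 0.0051 by edgeR). The call of Slc25a38 was lost without either FLAG-Lhx1 embryo, with upper-quartile scaling and with length and GC offsets, and that of Pqlc2 was kept throughout.

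Of 38 genes of mTORC1 and its amino acid sensors, Lamtor1 (-0.69, edgeR adjusted p = 0.0129; 18.7% of its exon bases lie under Lrrc51 on the other strand), a subunit gene of the lysosomal Ragulator, and Deptor (-0.77, adjusted p = 0.0416), an mTOR inhibitor gene, fell (5.26%, beside 3.55% of all tested genes) and none rose (median -0.09). At an unadjusted p under 0.05, 6 were lower and 2 higher, together 21.1%, beside 21.3% of all tested genes, so this list lay at the background. DESeq2 likewise called no gene higher in these 4 lists. In the mTORC1 list, the calls of Lamtor1 and Deptor were both lost without FLAG-Lhx1 replicate 2, and 5 genes fell with no count filter. More genes of this list also fell without FLAG-Lhx1-mt replicate 2 than with all embryos. With 1 embryo left out, the median of the mTORC1 list ran from -0.19 to -0.11. Among 24 genes tested from the integrated stress response, whose factor ATF4 drives many carrier genes in other cells, Phgdh and Eif4ebp1 (-0.67, adjusted p = 0.0139) fell and Vldlr rose (1.19, adjusted p = 0.00457), with a median of -0.27. That is 8.33% called lower, beside 3.55% of all tested genes, and 1 higher, beside 2.62%. At an unadjusted p under 0.05, 5 were lower and 1 higher, together 25%, beside 21.3% of all tested genes. The counts of fallen genes in this list were 1 without either FLAG-Lhx1 embryo and 4 without FLAG-Lhx1-mt replicate 1, and the median was -0.07 without FLAG-Lhx1-mt replicate 2. The lists share 9 genes, Phgdh among them.

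**Figure D5:**
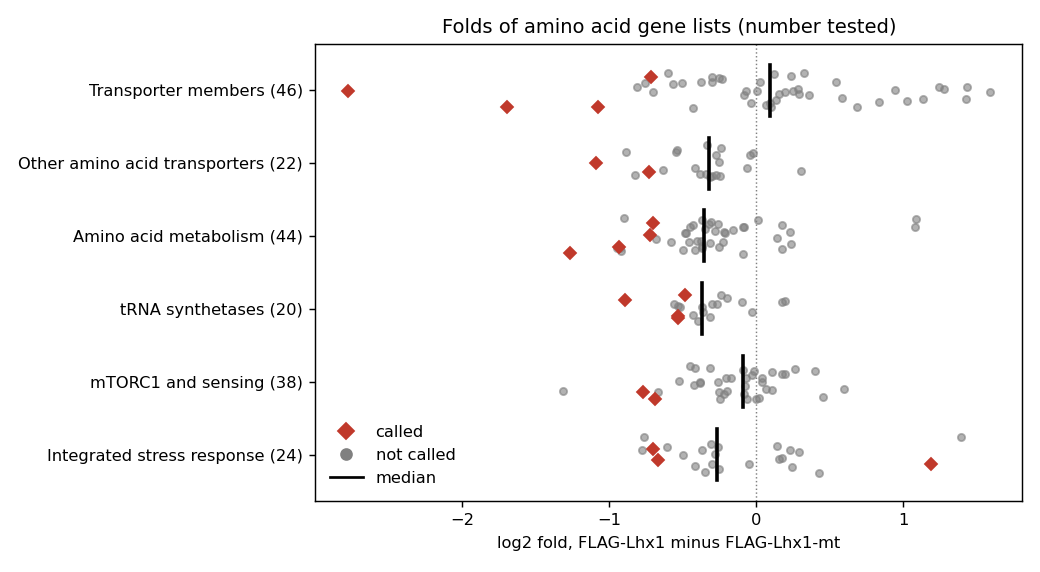
Log2 fold (FLAG-Lhx1 minus FLAG-Lhx1-mt) of the tested transporter members and of 5 other amino acid gene lists, 1 point per gene, with called genes as red diamonds and the median of each list as a black line; vertical scatter within a list has no meaning. The transporter members have a median of 0.09, and the median of tRNA synthetases is -0.37.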

How the data were processed

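Each of 4 deposited files holds whole-number read counts per Ensembl gene for 1 library, as the authors made them, not normalized. Per the labels' protocols, libraries followed Geo-seq: cDNA was pre-amplified for 10 cycles, 0.5 ng entered a Nextera XT preparation, and paired reads were 100 bp long. No molecular identifiers are named. STAR, featureCounts, Subread, GRCm38 and mm10 are named in the submitters' processing notes; versions, annotation and strandedness are not stated there, so reads of genes that overlap on opposite strands cannot be told apart. Symbols, positions and exon lengths came from GENCODE vM21 (GRCm38), which held 37693 of 39179 IDs (96.2%).

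Genes passing filterByExpr (minimum count 10, total 15) were scaled by TMM and tested in edgeR 4.0.16 (R 4.3.3; quasi-likelihood F test, group only). CPM use TMM-scaled library sizes. The variance of a gene rested on 2 residual and 13.4 prior degrees of freedom, and the confidence intervals on 15.4. SEs are the log2 fold over the root of F. Members and lists were chosen with earlier results of these data known. Members were named in full if called, if among the 10 highest per kilobase, or if on a list of 12 common carriers; all others are given by value or range, except 1 that is not reported here. The procedure was tested on simulated data. Between any 2 libraries, chi-square over its degrees of freedom was 26.8 to 101, above sampling noise. Alternatives were DESeq2 1.42.0, limma-voom 3.58.1, DESeq2 size factors, upper-quartile scaling, no count filter, each embryo left out, a replicate block, and offsets for transcript length and GC content.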

Additional observations from a re-analysis of the deposited data

How the results depend on the processing

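The count of transporter members that fell was 4 with all embryos and 3 to 7 with 1 embryo left out, 5 with no count filter (Slc7a5 added), and the count that rose was 0 and 0 to 2. The extremes of 7 and 2 came without FLAG-Lhx1-mt replicate 1. Slc7a3, Slc7a7 and Slc7a9 were called under all 11 alternatives and Slc3a2 under all but the one without FLAG-Lhx1 replicate 2. The median log2 fold of the members (0.09) was 0.15 with upper-quartile scaling, 0.032 with no count filter, -0.033 with length and GC offsets and -0.028 to 0.14 with 1 embryo left out, so its sign is not settled; the cause was not tested. Over 31 named genes and 341 refits, 308 kept the side of the threshold, 27 lost a call and 6 gained one. The number of all genes called lower and higher was 561 and 415, with upper-quartile scaling 395 and 472, and with 1 embryo left out 271 to 977 and 244 to 831; it was 952 lower with no count filter. Of amino acid metabolism genes, 7 fell with DESeq2 and 10 with no filter or without FLAG-Lhx1-mt replicate 1. The replicate block called 4 members lower and 0 higher; same-numbered embryos deviated together at r = 0.0156 only, so the numbers were not treated as pairs. Log2 folds rose with transcript length over all genes (Spearman's rho = 0.245, -0.00722 with the offsets). Depth limits the members under 1 CPM: the 95% confidence interval of Slc36a2, for example, ran from -0.08 to 3.26.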
